A study of Mus musculus with 12 samples.

Results

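Glycolysis and the pentose phosphate pathway were followed gene by gene in the messenger RNA of mouse CD8+ T cells, through 41 genes set by symbol: glucose and lactate carriers, the enzymes between them, regulators of those enzymes, side branches and the pentose phosphate enzymes. All 41 symbols were found among the 56691 gene IDs of the count table, and 40 of them were among the 15935 genes with enough counts to be tested. The exception was Gpd1, and Aldoa was listed under a second ID with 23 counts against 144179 under the ID used here. The cells came from spleen, were naive when isolated, and either carried Senp1 (Senp1 WT) or were labelled Senp1 CKO, read here as a conditional knockout. The product of Senp1 is an enzyme that cuts SUMO, a small protein tag, off other proteins. They were taken without stimulation (0 h) or after 48 h with anti-CD3 at 5 µg/ml and anti-CD28 at 1 µg/ml, antibodies to the T cell receptor complex and to a costimulatory receptor. There were 3 libraries in each of the 4 groups. The promoter that drove the deletion, the age and number of animals and any pooling are not stated by the labels. The p-values therefore measure the spread between these libraries, which may be technical.

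Glycolysis splits glucose into pyruvate, which is reduced to lactate and exported or carried into mitochondria and oxidised. Several of its steps can be run by any of a few isozymes, enzymes for the same reaction that are encoded by different genes. The pentose phosphate pathway branches off after the first phosphorylation and yields NADPH and ribose phosphate, the sugar of nucleotides. Naive T cells are known for low rates of both pathways, and stimulated T cells for high glucose uptake and lactate release even where oxygen is present.

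Library totals ran from 15900529 to 22427151 counts. Levels below are CPM, counts scaled to the library total, here with totals corrected by TMM, a factor for composition, and CPM per kilobase (kb) of annotated exon where genes are compared with each other. Senp1 was lower in each CKO library than in each WT library of the same time: 83.9, 85.4 and 77.9 CPM in WT and 56.5, 59.8 and 54.6 CPM in CKO at 0 h. Senp1 stood at 150.3, 171 and 164 CPM in WT and 70.0, 74.5 and 66.3 CPM in CKO at 48 h. The CKO cells thus held 69.1% and 43.5% of the WT level, with log2 changes of -0.53 ± 0.070 and -1.20 ± 0.068 (SE, edgeR adjusted p = 6.26e-05 and 5.43e-10). The 6 markers of CD8 T cells were all called lower at 48 h in both genotypes (edgeR). Their sum went from 3158 to 3357 to 1536 to 1587 CPM in WT and from 3061 to 3256 to 1293 to 1355 CPM in CKO, as lowest and highest library. Markers of other cells were present. Those of B cells summed to 233 to 450.1 CPM in WT and 161 to 202 CPM in CKO at 0 h, and to 26.6 to 53.7 and 32.1 to 48.9 CPM at 48 h. Those of CD4 T cells ran from 50.6 to 88.9 CPM over all libraries. Of 3 NK cell markers, 1 was called higher and 2 lower at 48 h in each genotype (edgeR). Their sum was 87.4 to 118 CPM at 0 h and 224 to 260.1 CPM at 48 h in WT, and 88 to 148 and 134 to 190.2 CPM in CKO, where the times overlapped. The part of other cells in the changes with stimulation was not tested. In RNA of a whole cell preparation, fewer cells of a type, less of an RNA per cell and more of the other RNAs cannot be told apart. Rises and falls below are relative to the rest of a library, and total RNA per cell is not given here.

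Most of the set was higher after 48 h with stimulation than at 0 h in both genotypes. In WT 33 of the 40 tested genes rose and 5 fell, and in CKO 32 rose and 4 fell (edgeR, adjusted p under 0.05). Change was the rule across the transcriptome: of all genes tested, 77.9% were called in WT (38.7% higher, 39.1% lower) and 77.7% in CKO (38.5% higher, 39.2% lower). The 40 genes had a median log2 change of 1.47 in WT and 1.41 in CKO, beside -0.033 and -0.044 for all genes tested. Summed over the set, counts went from 0.329 ± 0.011% of a library at 0 h to 1.78 ± 0.16% at 48 h in WT, and from 0.349 ± 0.0071% to 1.64 ± 0.077% in CKO (SD, n = 3). Of the 18 enzymes from hexokinase to lactate dehydrogenase, 17 rose and 1 (Hk3) fell in each genotype. All 7 pentose phosphate enzymes rose in WT and 6 of them in CKO. The largest rises in WT were those of Hk2, Tpi1, Slc16a3 and Pgk1, each over 4 on the log2 scale, and the genes that fell were Hk3, Pfkfb4, Pdk1, Pdk2 and Mpc2.

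**Figure D1:**
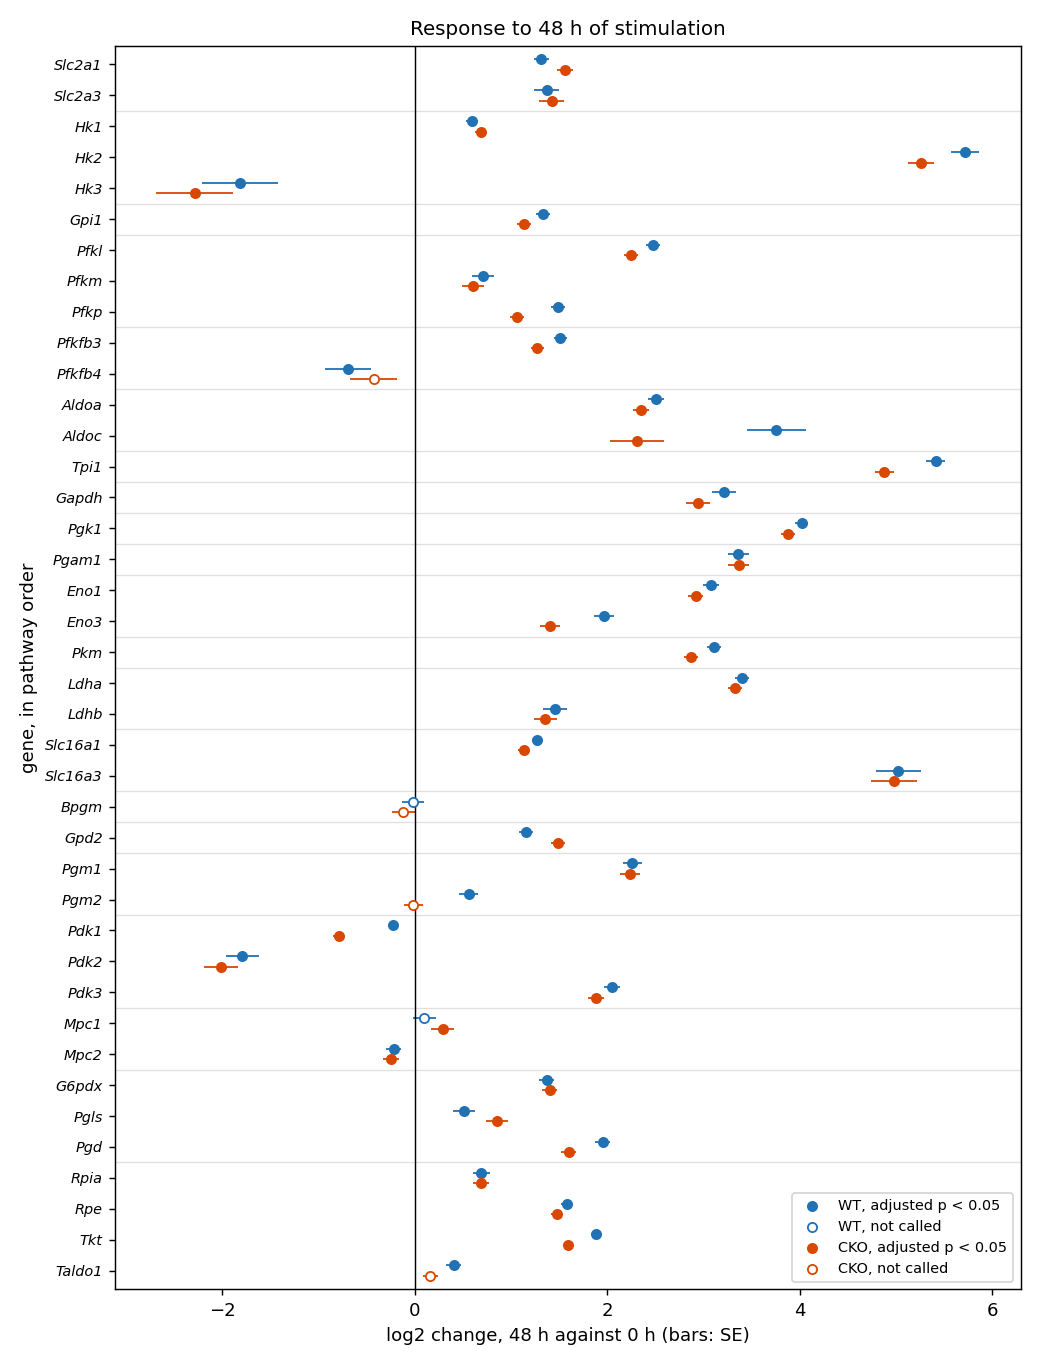
Log2 change at 48 h against 0 h (x axis) of the 40 tested genes in pathway order (y axis), in WT (blue) and CKO (orange); bars are standard errors and open circles genes not called. Most points lie right of 0 in both genotypes; Hk2, Tpi1 and Slc16a3 lie farthest right, and Hk3 and Pdk2 farthest left.

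Glucose enters T cells through facilitative carriers, of which Slc2a1 (GLUT1) and Slc2a3 (GLUT3) were examined. At 0 h Slc2a1 stood at 67.9, 71.3 and 74.9 CPM in WT and 57.2, 60.7 and 53.3 CPM in CKO, and at 48 h at 202, 162 and 169 CPM in WT and 181, 168 and 157 CPM in CKO. It rose by 1.32 ± 0.081 in WT and 1.56 ± 0.082 in CKO (log2, SE, edgeR adjusted p = 1.26e-11 and 1.1e-12). The 48 h libraries lay above all 0 h libraries, and the CKO libraries lay below the WT libraries at 0 h but overlapped them at 48 h. Slc2a3, with 73.7 ± 2.72 CPM in WT at 0 h (SD, n = 3), rose by 1.37 ± 0.13 in WT and 1.42 ± 0.13 in CKO (log2, SE, edgeR adjusted p = 9.43e-07 and 6.52e-07). Per kb the pair summed to 30.5 ± 1.34 CPM in WT and 27.8 ± 1.15 CPM in CKO at 0 h (SD, n = 3), and to 77 ± 7.90 and 79.1 ± 10.1 CPM at 48 h. Slc2a1 made up 66.7 ± 0.527% of that sum in WT and 58.5 ± 1.71% in CKO at 0 h, and its 3 CKO values lay below its 3 WT values. With coding transcript lengths, an alternative chosen after seeing the data, these shares were 54% and 45.3%, so that Slc2a3 was the larger of the pair in CKO.

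Hexokinase, which phosphorylates glucose and so keeps it in the cell, changed its isozyme. Hk2, the inducible form, stood at 5.55, 5.37 and 4.88 CPM in WT and 5.96, 8.29 and 8.84 CPM in CKO at 0 h. Hk2 stood at 325, 256 and 254 CPM in WT and 317, 269 and 301 CPM in CKO at 48 h. The groups of the 2 times were far apart, and at 0 h each CKO library lay above each WT library. Hk2 rose by 5.72 ± 0.14 in WT and 5.26 ± 0.14 in CKO (log2, SE, edgeR adjusted p = 1.69e-14 and 2.97e-14), or 52.7-fold and 38.4-fold. Hk1, the form most cells carry at a steady level, rose by 0.60 ± 0.063 in WT and 0.68 ± 0.063 in CKO (log2, SE, edgeR adjusted p = 4.32e-08 and 6.1e-09). Hk2 thus went from 4.98 ± 0.155% to 65.2 ± 2.30% of the hexokinase level per kb in WT and from 6.94 ± 1.19% to 65.2 ± 0.912% in CKO (SD, n = 3), while Hk1 went from 91.5 ± 1.85% to 34.5 ± 2.29% and from 88.3 ± 1.19% to 34.6 ± 0.910%. With the length of 1 coding transcript in place of all exons, the share of Hk2 at 48 h was 47.9% in WT and 47.8% in CKO, just below that of Hk1. The bases before the start of Hk2 (RefSeq, GRCm38.p6, chr6:82774455-82774704, minus strand, given in transcript direction) are shown because this gene rose most. Capitals mark ACGTG on either strand, a form of the core of the site bound by HIF and many basic helix-loop-helix factors. The form GCGTG was not searched or marked.
Hk2: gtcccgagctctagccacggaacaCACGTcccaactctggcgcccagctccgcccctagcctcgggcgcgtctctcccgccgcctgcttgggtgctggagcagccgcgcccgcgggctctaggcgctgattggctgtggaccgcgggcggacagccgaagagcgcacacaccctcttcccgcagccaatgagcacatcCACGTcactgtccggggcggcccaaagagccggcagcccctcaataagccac

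Hk3, a hexokinase of myeloid cells, was the only 1 of the 18 enzymes to fall. It stood at 3.61, 2.03 and 1.31 CPM in WT and 3.07, 3.51 and 3.17 CPM in CKO at 0 h. Hk3 stood at 0.572, 0.947 and 0.454 CPM in WT and 0.504, 0.713 and 0.759 CPM in CKO at 48 h, with no overlap between the times. It fell by 1.82 ± 0.40 in WT and by 2.29 ± 0.40 in CKO (log2, SE, edgeR adjusted p = 0.000304 and 2.42e-05). Of 7 myeloid markers, 6 fell in WT and 7 in CKO (edgeR), and none was at 0 in all libraries. Their sum was 38.7 to 63.2 CPM at 0 h and 4.77 to 7.07 CPM at 48 h in WT, and 43.4 to 77.1 and 4.10 to 10.4 CPM in CKO. Their part in the level of Hk3 was not tested.

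Gpi1, which turns glucose phosphate into fructose phosphate, stood at 285, 249 and 245 CPM in WT and 272, 259 and 259.7 CPM in CKO at 0 h. At 48 h it stood at 729, 594 and 647 CPM in WT and 592, 597 and 549.9 CPM in CKO, above every 0 h library. It rose by 1.34 ± 0.073 in WT and 1.14 ± 0.073 in CKO (log2, SE, edgeR adjusted p = 2.32e-12 and 2.99e-11). Phosphofructokinase, the committed step of glycolysis, has a platelet (Pfkp), a liver (Pfkl) and a muscle (Pfkm) form, all of which rose. Pfkp, the most abundant per kb, stood at 221, 237 and 209 CPM in WT and 283, 273 and 319 CPM in CKO at 0 h. Pfkp stood at 658, 595 and 618 CPM in WT and 657, 589 and 580.1 CPM in CKO at 48 h. CKO libraries lay above WT libraries at 0 h and overlapped them at 48 h. Pfkp rose by 1.49 ± 0.071 in WT and 1.06 ± 0.071 in CKO (log2, SE, edgeR adjusted p = 2.77e-13 and 4.94e-11). Pfkl rose more, by 2.47 ± 0.075 in WT and 2.24 ± 0.075 in CKO on the log2 scale (SE), and Pfkm less, by 0.71 ± 0.12 and 0.61 ± 0.12. The share of Pfkl in the step per kb went from 24.7 ± 1.83% to 41.2 ± 0.836% in WT and from 21 ± 1.69% to 38.5 ± 0.456% in CKO (SD, n = 3), and Pfkp kept the largest share, 52.4 ± 0.586% and 54.5 ± 0.910% at 48 h.

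Phosphofructokinase is driven by a regulatory fructose bisphosphate made by the PFKFB enzymes, and the 2 measured forms moved apart. Pfkfb3, whose product strongly favours synthesis of this activator, stood at 36.2, 38.5 and 35.7 CPM in WT and 45.5, 44.3 and 45.4 CPM in CKO at 0 h. Pfkfb3 stood at 96.3, 108 and 110.1 CPM in WT and 106, 107 and 113 CPM in CKO at 48 h. It rose by 1.51 ± 0.067 in WT and 1.27 ± 0.067 in CKO (log2, SE, edgeR adjusted p = 8.45e-14 and 1.1e-12), and CKO lay above WT at 0 h only. Pfkfb4 was low, at 5.73, 5.57 and 7.61 CPM in WT and 5.16, 4.18 and 4.27 CPM in CKO at 0 h. Pfkfb4 stood at 4.52, 2.79 and 4.36 CPM in WT and 3.81, 3.95 and 2.38 CPM in CKO at 48 h. It fell in WT by 0.69 ± 0.24 (log2, SE, edgeR adjusted p = 0.0121), a call lost without WT 0 h replicate 3 or WT 48 h replicate 2 (adjusted p 0.0732 to 0.0802). In CKO its log2 change of -0.43 ± 0.25 (SE) did not pass (edgeR adjusted p = 0.119), although the libraries of the times did not overlap in either genotype. Pfkfb3 went from 79 ± 3.44% to 94.5 ± 1.49% of the pair per kb in WT (SD, n = 3).

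The next enzymes split the sugar and interconvert its products. Aldoa, the aldolase of muscle and most dividing cells, stood at 225, 205 and 197 CPM in WT and 196, 186 and 174 CPM in CKO at 0 h. Aldoa stood at 1372, 1068 and 1114 CPM in WT and 987, 946 and 896 CPM in CKO at 48 h, and CKO lay below WT at each time without overlap. Aldoa did not pass between genotypes at 0 h (edgeR adjusted p = 0.249). It rose by 2.50 ± 0.083 in WT and 2.35 ± 0.083 in CKO (log2, SE, edgeR adjusted p = 7.76e-15 and 1.9e-14). Aldoc, the brain form, stayed at or under 1.22% of the aldolase level per kb in every group mean. It rose by 3.75 ± 0.30 in WT and 2.31 ± 0.28 in CKO (log2, SE, edgeR adjusted p = 1.58e-09 and 5.17e-07). Tpi1, triose phosphate isomerase, had 31.5, 28.6 and 26.2 CPM in WT and 34.5, 38.1 and 32.6 CPM in CKO at 0 h. Tpi1 stood at 1433, 1112 and 1131 CPM in WT and 1093, 1034 and 967 CPM in CKO at 48 h. It rose by 5.41 ± 0.098 in WT and 4.88 ± 0.097 in CKO (log2, SE, edgeR adjusted p = 8.62e-17 and 2.48e-16), or 42.6-fold and 29.4-fold, next to that of Hk2 in WT. CKO lay above WT at 0 h and below it at 48 h, without overlap at either time. Neither difference passed (edgeR adjusted p = 0.115 at 0 h and 0.152 at 48 h). The share of all genes without such overlap is not given here.

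The lower steps, which recover ATP and yield pyruvate, rose together. Gapdh, which oxidises the triose, stood at 35.8, 33.7 and 36 CPM in WT and 42.4, 31.2 and 34.9 CPM in CKO at 0 h. Gapdh stood at 374, 303 and 301 CPM in WT and 307, 236 and 290.4 CPM in CKO at 48 h. It rose by 3.21 ± 0.12 in WT and 2.94 ± 0.12 in CKO (log2, SE, edgeR adjusted p = 5.53e-11 and 1.39e-10). Pgk1, the first ATP-forming enzyme, stood at 124, 113 and 106 CPM in WT and 113, 118 and 122 CPM in CKO at 0 h. Pgk1 stood at 2058, 1699 and 1803 CPM in WT and 1819, 1701 and 1662 CPM in CKO at 48 h. It rose by 4.02 ± 0.072 in WT and 3.88 ± 0.072 in CKO (log2, SE, edgeR adjusted p = 7.45e-19 and 1.25e-18). For Gapdh and Pgk1 the times were wholly separate and the genotypes overlapped at each time. Pgam1, a mutase, stood at 44.3, 31.8 and 31.9 CPM in WT and 36.7, 29.4 and 32.8 CPM in CKO at 0 h. Pgam1 stood at 389, 364 and 356 CPM in WT and 354, 333 and 331 CPM in CKO at 48 h. It rose by 3.36 ± 0.11 in WT and 3.36 ± 0.11 in CKO (log2, SE, edgeR adjusted p = 3.04e-13 and 3.34e-13), and the responses differed by 0.0031 ± 0.15 (SE).

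Enolase was mostly Eno1, at 309, 285 and 289 CPM in WT and 297, 332 and 286 CPM in CKO at 0 h. Eno1 stood at 2844, 2256 and 2348 CPM in WT and 2447, 2255 and 2215 CPM in CKO at 48 h. Eno1 rose by 3.08 ± 0.079 in WT and 2.92 ± 0.079 in CKO (log2, SE, edgeR adjusted p = 2.06e-16 and 4.15e-16). The muscle form Eno3 stood at 18.6, 17.9 and 17.5 CPM in WT and 21.9, 19.2 and 15.4 CPM in CKO at 0 h. Eno3 stood at 78.8, 64.1 and 68 CPM in WT and 47.5, 50.3 and 51.9 CPM in CKO at 48 h. It rose by 1.97 ± 0.10 in WT and 1.41 ± 0.11 in CKO (log2, SE, edgeR adjusted p = 1.33e-12 and 3.02e-10). The genotypes overlapped in Eno3 at 0 h, whereas all CKO libraries lay below all WT libraries at 48 h. Its share of enolase per kb went from 15.9 ± 0.320% to 8.07 ± 0.167% in WT and from 16 ± 2.29% to 6.29 ± 0.568% in CKO (SD, n = 3). Pkm, pyruvate kinase, stood at 368, 327 and 327 CPM in WT and 347, 363 and 338 CPM in CKO at 0 h. Pkm stood at 3279, 2682 and 2870.4 CPM in WT and 2689.9, 2499 and 2485 CPM in CKO at 48 h. It rose by 3.11 ± 0.070 in WT and 2.87 ± 0.070 in CKO (log2, SE, edgeR adjusted p = 9.49e-18 and 2.67e-17). The table has 1 value for the gene, so the alternative forms of its product cannot be told apart.

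Ldha, the lactate dehydrogenase subunit of glycolytic tissue, had the highest level per kb of the set at 48 h, 892 CPM in WT and 799 CPM in CKO. Its libraries stood at 304, 272 and 263 CPM in WT and 261, 284 and 247 CPM in CKO at 0 h. Ldha stood at 3292, 2732 and 2832 CPM in WT and 2752, 2604 and 2574 CPM in CKO at 48 h. It rose by 3.40 ± 0.074 in WT and 3.32 ± 0.074 in CKO (log2, SE, edgeR adjusted p = 6.33e-18 and 8.77e-18). Ldhb, the subunit of heart and oxidative tissue, rose less, by 1.46 ± 0.12 in WT and 1.36 ± 0.12 in CKO on the log2 scale (SE), and went from 7.40 ± 1.89% to 2.03 ± 0.142% of the step in WT and from 9.91 ± 0.424% to 2.74 ± 0.250% in CKO (SD, n = 3). The bases before the start of Ldha (RefSeq, GRCm38.p6, chr7:46845554-46845803, plus strand) held 2 copies of CACGTG, the palindrome bound by MYC and USF factors, and a further ACGTG, all in capitals; they are shown as the densest stretch of these letters among the promoters printed here.
Ldha: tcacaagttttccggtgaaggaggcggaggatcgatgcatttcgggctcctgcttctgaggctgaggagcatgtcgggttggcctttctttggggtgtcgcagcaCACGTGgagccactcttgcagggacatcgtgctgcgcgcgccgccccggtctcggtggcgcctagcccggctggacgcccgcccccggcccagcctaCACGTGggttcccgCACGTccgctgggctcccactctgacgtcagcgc

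Lactate leaves through Slc16a1 (MCT1) and Slc16a3 (MCT4, the carrier of strongly glycolytic cells). Slc16a1 stood at 126, 128 and 137 CPM in WT and 126, 132 and 134 CPM in CKO at 0 h. Slc16a1 stood at 312, 316 and 316 CPM in WT and 290.0, 279 and 289 CPM in CKO at 48 h. It rose by 1.27 ± 0.055 in WT and 1.13 ± 0.055 in CKO (log2, SE, edgeR adjusted p = 5.18e-14 and 3.26e-13). Slc16a3 had 3.94 ± 0.346 CPM in WT and 4.04 ± 0.961 CPM in CKO at 0 h (SD, n = 3), and 128 ± 32.2 and 128 ± 13.9 CPM at 48 h. It rose by 5.02 ± 0.23 in WT and 4.98 ± 0.24 in CKO (log2, SE, edgeR adjusted p = 1.45e-09 and 1.7e-09), and its share of the pair per kb went from 2.46 ± 0.200% to 25.1 ± 4.77% in WT and from 2.52 ± 0.602% to 27 ± 2.03% in CKO. An exact permutation test of 3 against 3 libraries, two-sided, cannot go below p = 0.1. The lowest p adjusted over the 27 shares of a comparison ran from 0.108 to 0.225, so that the shares are given as a description. Besides isozymes, these shares cover the glucose and lactate carriers, Mpc1 with Mpc2, and Gpd1 with Gpd2.

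**Figure D2:**
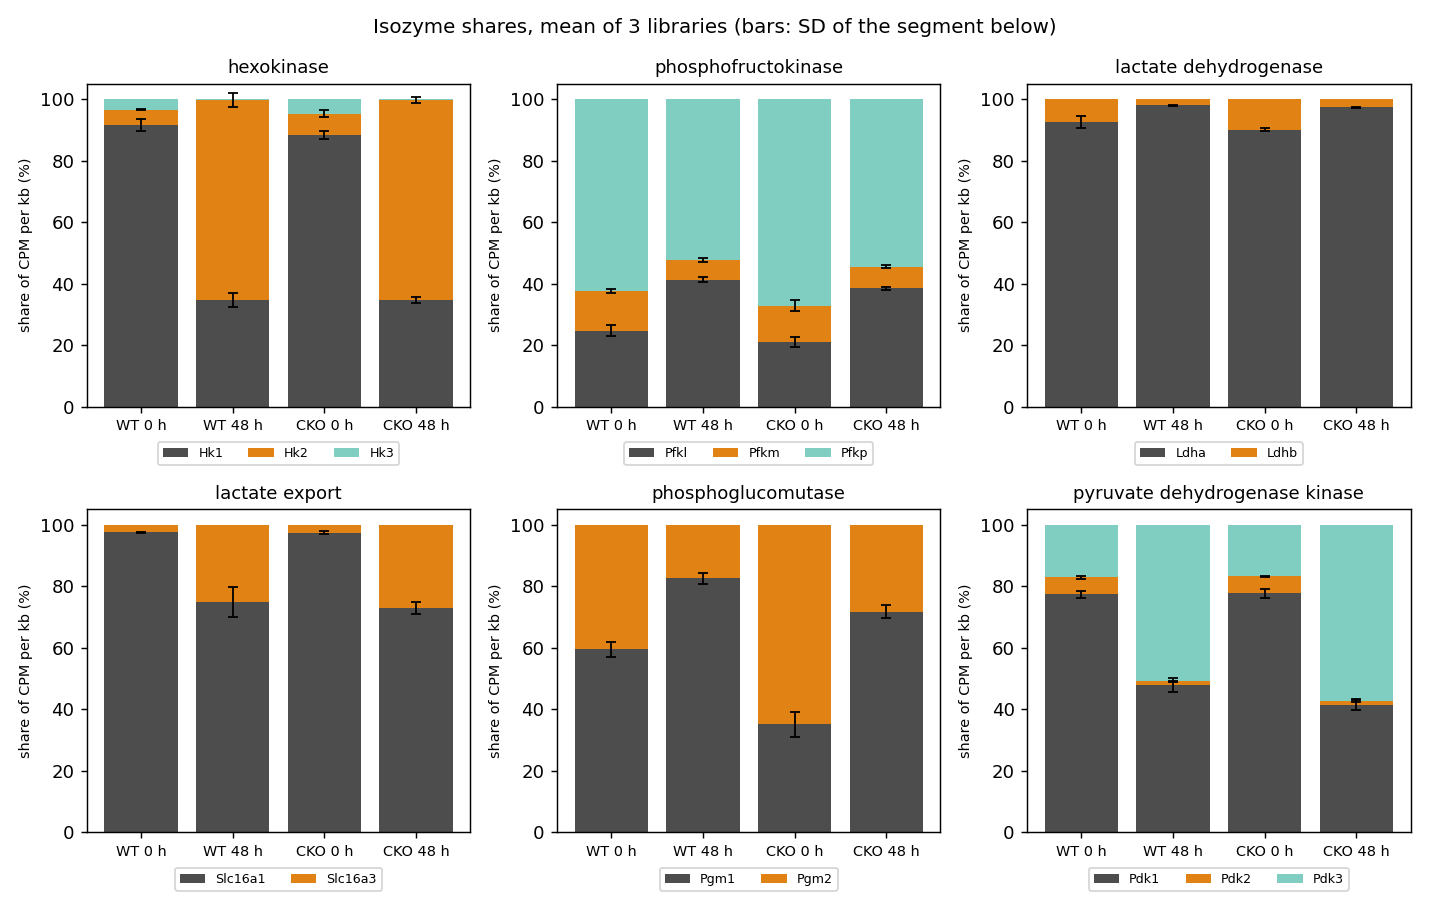
Share of each isozyme or carrier in its step (y axis, percent of CPM per kb, mean of 3 libraries, bars SD) in the 4 groups (x axis) for 6 steps. Hk2, Slc16a3 and Pdk3 take larger shares at 48 h in both genotypes, and Pgm2 takes the larger share of its step in CKO at 0 h alone.

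Side branches were less uniform. Bpgm, which makes the bisphosphoglycerate of red cells, stood at 20.6, 17.8 and 17 CPM in WT and 17.5, 21.7 and 16.1 CPM in CKO at 0 h. Bpgm stood at 17.1, 19.6 and 17.9 CPM in WT and 16.8, 17.3 and 16.9 CPM in CKO at 48 h. Its log2 changes of -0.018 ± 0.12 in WT and -0.12 ± 0.12 in CKO (SE) did not pass (edgeR adjusted p = 0.895 and 0.378). Of 7 erythroid markers, 6 were tested and fell in both genotypes (edgeR), and none was at 0 in all libraries. Their sum was 20.3 to 36.2 CPM at 0 h and 0.136 to 0.728 CPM at 48 h in WT, and 10.7 to 18.9 and 0.274 to 0.455 CPM in CKO. Their part in the level of Bpgm was not tested. Of the glycerol phosphate shuttle, which passes electrons of cytosolic NADH to mitochondria, the mitochondrial enzyme Gpd2 stood at 42.9, 40.8 and 40.4 CPM in WT and 43.8, 39.1 and 38.9 CPM in CKO at 0 h. Gpd2 stood at 91.6, 97.2 and 88.6 CPM in WT and 119, 105 and 119 CPM in CKO at 48 h. It rose by 1.16 ± 0.072 in WT and 1.49 ± 0.073 in CKO (log2, SE, edgeR adjusted p = 1.6e-11 and 3.41e-13), and its CKO libraries lay above its WT libraries at 48 h. Its cytosolic partner Gpd1 had 16, 34, 13 and 7 counts over the 3 libraries of WT at 0 h, CKO at 0 h, WT at 48 h and CKO at 48 h, too few to be tested.

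Phosphoglucomutases link glycolysis to glycogen and, in the case of Pgm2, to the pentoses of nucleosides; the symbols follow the IDs ENSMUSG00000025791 (Pgm1, chromosome 4) and ENSMUSG00000029171 (Pgm2, chromosome 5), since older sources exchange them. Pgm1 stood at 22.8, 24.9 and 26.9 CPM in WT and 18.3, 18.7 and 17.1 CPM in CKO at 0 h. Pgm1 stood at 138, 108 and 111 CPM in WT and 95.2, 83.6 and 76.7 CPM in CKO at 48 h. It rose by 2.26 ± 0.10 in WT and 2.24 ± 0.10 in CKO (log2, SE, edgeR adjusted p = 2.5e-13 and 4.92e-13). The CKO libraries lay below the WT libraries at both times. Pgm2 went the other way between genotypes, with 15.5, 14.1 and 15.4 CPM in WT and 29.7, 26 and 33.8 CPM in CKO at 0 h. Pgm2 stood at 22.5, 22.7 and 21.2 CPM in WT and 29.8, 28.9 and 29.9 CPM in CKO at 48 h. In WT it rose by 0.56 ± 0.10 (log2, SE, edgeR adjusted p = 5.09e-05), whereas in CKO the log2 change was -0.015 ± 0.097 (adjusted p = 0.895) and the times overlapped. Each CKO library, at either time, had more Pgm2 than each WT library of the same time. Per kb Pgm1 was 59.5 ± 2.44% of the pair in WT and 35.1 ± 4.0% in CKO at 0 h (SD, n = 3), and 82.5 ± 1.89% and 71.8 ± 2.23% at 48 h, so that Pgm2 was the larger part in CKO at 0 h and the smaller in the other 3 groups. The bases before both starts are printed because the pair split by genotype (RefSeq, GRCm38.p6; Pgm1 chr4:99929201-99929450, plus strand; Pgm2 chr5:64092689-64092938, plus strand; capitals mark ACGTG on either strand).
Pgm1: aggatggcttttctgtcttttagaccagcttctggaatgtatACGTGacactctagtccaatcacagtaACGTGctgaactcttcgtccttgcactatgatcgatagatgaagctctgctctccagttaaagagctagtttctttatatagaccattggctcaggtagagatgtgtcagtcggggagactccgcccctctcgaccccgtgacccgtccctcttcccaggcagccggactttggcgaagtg
Pgm2: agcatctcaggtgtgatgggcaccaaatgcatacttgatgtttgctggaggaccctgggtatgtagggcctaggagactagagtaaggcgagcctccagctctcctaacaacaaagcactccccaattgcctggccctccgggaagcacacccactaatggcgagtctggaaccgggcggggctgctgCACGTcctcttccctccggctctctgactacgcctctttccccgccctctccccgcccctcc

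Pyruvate dehydrogenase kinases switch off the entry of pyruvate into the citric acid cycle, and their balance shifted with stimulation. Pdk1, the most abundant at 0 h, stood at 301, 308 and 296 CPM in WT and 347, 343 and 336 CPM in CKO at 0 h. Pdk1 stood at 252, 260.0 and 265 CPM in WT and 199, 213 and 181 CPM in CKO at 48 h. It fell by 0.22 ± 0.060 in WT and by 0.79 ± 0.060 in CKO (log2, SE, edgeR adjusted p = 0.00257 and 3.76e-10). All CKO libraries were above all WT libraries at 0 h and below them at 48 h. Pdk2 stood at 9.28, 8.05 and 9.10 CPM in WT and 9.71, 10.7 and 9.32 CPM in CKO at 0 h. Pdk2 stood at 2.55, 2.47 and 2.59 CPM in WT and 2.30, 2.31 and 2.73 CPM in CKO at 48 h. It fell by 1.79 ± 0.17 in WT and by 2.01 ± 0.17 in CKO (log2, SE, edgeR adjusted p = 1.05e-08 and 2.19e-09). Pdk3 stood at 23.5, 21.3 and 20.9 CPM in WT and 22.4, 26.5 and 24.3 CPM in CKO at 0 h. Pdk3 stood at 98.2, 86.4 and 87.6 CPM in WT and 95.1, 89.3 and 85.3 CPM in CKO at 48 h, with the genotypes overlapping. It rose by 2.05 ± 0.082 in WT and 1.88 ± 0.082 in CKO (log2, SE, edgeR adjusted p = 1.47e-14 and 5.4e-14). Per kb the share of Pdk3 went from 17 ± 0.872% to 50.9 ± 2.31% in WT and from 16.8 ± 1.22% to 57.3 ± 1.72% in CKO (SD, n = 3), and that of Pdk1 from 77.4 ± 1.15% to 47.9 ± 2.28% and from 77.7 ± 1.40% to 41.4 ± 1.80%. With coding transcript lengths Pdk1 was the larger of the pair at 48 h in WT (53.2% against 45.6%) and Pdk3 the larger in CKO (52% against 46.6%). The bases before the starts of the 2 kinases that fell are shown beside those of genes that rose (RefSeq, GRCm38.p6). They are Pdk1 chr2:71872974-71873223, plus strand, and Pdk2 chr11:95041372-95041621, minus strand. The Pdk2 stretch held CACGTG, in capitals, and the Pdk1 stretch no ACGTG. The form GCGTG, which was not searched or marked, is in the Pdk1 stretch.
Pdk1: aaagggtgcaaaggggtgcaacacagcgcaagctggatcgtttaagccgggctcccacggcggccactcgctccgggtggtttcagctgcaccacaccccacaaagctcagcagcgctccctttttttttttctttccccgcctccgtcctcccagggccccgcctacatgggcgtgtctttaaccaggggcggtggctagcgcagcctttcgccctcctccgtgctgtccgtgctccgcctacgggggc
Pdk2: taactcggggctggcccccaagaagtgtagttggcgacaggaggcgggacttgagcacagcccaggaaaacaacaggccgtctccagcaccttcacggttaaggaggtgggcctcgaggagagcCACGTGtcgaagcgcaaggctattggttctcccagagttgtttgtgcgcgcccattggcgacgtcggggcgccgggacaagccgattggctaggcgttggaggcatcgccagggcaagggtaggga

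The mitochondrial pyruvate carrier, a dimer of Mpc1 and Mpc2, changed little. Mpc1 stood at 15.4, 19.8 and 21.9 CPM in WT and 19.4, 20.5 and 20.4 CPM in CKO at 0 h. Mpc1 stood at 20.1, 20.7 and 20.5 CPM in WT and 22.4, 23.8 and 27.7 CPM in CKO at 48 h. It rose in CKO by 0.29 ± 0.12 (log2, SE, edgeR adjusted p = 0.03) and did not pass in WT (0.10 ± 0.12, adjusted p = 0.443). The CKO call ended with library totals alone, with a stricter count filter and without CKO 0 h replicate 1, CKO 0 h replicate 3 or CKO 48 h replicate 3 (edgeR adjusted p 0.05 to 0.174). Mpc2 stood at 30.1, 29.6 and 32.2 CPM in WT and 29.9, 30.8 and 28.2 CPM in CKO at 0 h. Mpc2 stood at 27.6, 24.7 and 26.6 CPM in WT and 24.3, 25.2 and 25.3 CPM in CKO at 48 h. It fell by 0.22 ± 0.082 in WT and by 0.25 ± 0.083 in CKO (log2, SE, edgeR adjusted p = 0.0203 and 0.0107). The WT call ended without a count filter, without WT 0 h replicate 3 and without WT 48 h replicate 2 (adjusted p 0.0939 to 0.215), and the CKO call without a count filter (adjusted p 0.0872).

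The oxidative arm of the pentose phosphate pathway, which makes NADPH, rose in all 3 genes. G6pdx, its entry enzyme, stood at 47.9, 41.3 and 37.9 CPM in WT and 36.9, 42 and 41.7 CPM in CKO at 0 h. G6pdx stood at 111, 113 and 105 CPM in WT and 109, 102 and 108 CPM in CKO at 48 h. It rose by 1.37 ± 0.079 in WT and 1.40 ± 0.080 in CKO (log2, SE, edgeR adjusted p = 4.34e-12 and 3.57e-12). Pgls, the lactonase that follows, stood at 24, 22.2 and 21.5 CPM in WT and 16.5, 19.3 and 14.1 CPM in CKO at 0 h. Pgls stood at 34.9, 31.9 and 29.9 CPM in WT and 26.1, 30.6 and 33.3 CPM in CKO at 48 h. It rose by 0.52 ± 0.11 in WT and 0.85 ± 0.12 in CKO (log2, SE, edgeR adjusted p = 0.000377 and 1.66e-06). At 0 h the CKO libraries lay below the WT libraries, and at 48 h they overlapped. Pgd, the other NADPH-forming enzyme, rose by 1.95 ± 0.079 in WT and 1.60 ± 0.079 in CKO (log2, SE), the most of the arm in both.

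In the non-oxidative arm, which exchanges pentoses with glycolytic sugars, Tkt (transketolase) rose most. It stood at 135, 129.8 and 131 CPM in WT and 152, 158 and 154 CPM in CKO at 0 h. Tkt stood at 504, 466 and 488 CPM in WT and 483, 466 and 449 CPM in CKO at 48 h, with CKO above WT at 0 h and the genotypes overlapping at 48 h. It rose by 1.88 ± 0.055 in WT and 1.59 ± 0.055 in CKO (log2, SE, edgeR adjusted p = 1.81e-16 and 1.94e-15). Taldo1, transaldolase, stood at 97.8, 80.5 and 82.8 CPM in WT and 94.2, 90.2 and 85.3 CPM in CKO at 0 h. Taldo1 stood at 129, 105 and 111 CPM in WT and 102, 101 and 99.8 CPM in CKO at 48 h. It rose in WT by 0.40 ± 0.081 (log2, SE, edgeR adjusted p = 0.000151) and had a change of 0.16 ± 0.081 in CKO (adjusted p = 0.0719), which passed without a count filter, with a replicate block, and without WT replicate 1 of 0 h, of 48 h or of both (adjusted p 0.0129 to 0.0367). Rpe and Rpia, the enzymes that interconvert pentose phosphates, rose by 1.58 ± 0.060 and 0.69 ± 0.086 in WT and by 1.48 ± 0.060 and 0.69 ± 0.086 in CKO.

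At 0 h, before stimulation, 4 of the 40 genes were higher in CKO and 3 lower (edgeR, adjusted p under 0.05). That was 10% and 7.5% of them, and 17.5% in either direction. Of all genes tested, 4.1% and 3.38% were called so, and 7.48% in either direction. Pgm2 stood out with 29.8 ± 3.92 CPM in CKO against 15 ± 0.754 CPM in WT (SD, n = 3), 1.99-fold, log2 change 0.99 ± 0.10 (SE, edgeR adjusted p = 2.36e-06). Pfkp followed with 292 ± 24.5 against 222 ± 14 CPM, log2 change 0.39 ± 0.071 (SE, edgeR adjusted p = 0.00166). Pfkfb3, log2 change 0.29 ± 0.070 (SE, edgeR adjusted p = 0.0128), and Tkt, log2 change 0.23 ± 0.056 (SE, edgeR adjusted p = 0.0159), were also higher. Lower in CKO were Pgm1, at 18 ± 0.826 against 24.9 ± 2.04 CPM, log2 change -0.46 ± 0.11 (SE, edgeR adjusted p = 0.0143), Pgls, log2 change -0.44 ± 0.12 (SE, edgeR adjusted p = 0.0267), and the carrier Slc2a1, log2 change -0.32 ± 0.083 (SE, edgeR adjusted p = 0.0218). Of the genes that did not pass, Hk2 had log2 change 0.55 ± 0.17 (SE, edgeR adjusted p = 0.0672), Ldhb log2 change 0.39 ± 0.12 (SE, edgeR adjusted p = 0.0656) and Pgd log2 change 0.26 ± 0.081 (SE, edgeR adjusted p = 0.0577). Among the 20 alternatives Hk2 passed in 7, Ldhb in 4 and Pgd in 10, DESeq2 included (adjusted p = 0.00979, 0.045 and 0.0459). The summed markers of 3 other cell types were lower in CKO than in WT at 0 h without overlap: 161 to 202 against 233 to 450.1 CPM for B cells, 10.7 to 18.9 against 20.3 to 36.2 CPM for erythroid cells and 5.45 to 7.99 against 8.76 to 11.5 CPM for platelets. Of the markers tested, 0 of 5, 1 of 6 and 0 of 2 were called lower (edgeR), as was 1 of 6 CD8 T cell markers, and their part in these differences was not tested. The calls of Pgm2 and Pfkp held in all 20 alternatives run. The other calls ended when some 0 h libraries were left out. The call of Slc2a1 ended without WT replicate 2, WT replicate 3, CKO replicate 1 or CKO replicate 3 (edgeR adjusted p 0.0602 to 0.122), and that of Pgm1 without WT replicate 3 or CKO replicate 3 (adjusted p 0.0644 to 0.0769). That of Tkt ended without WT replicate 2, WT replicate 3 or CKO replicate 3 (adjusted p 0.0521 to 0.0637), and that of Pfkfb3 without WT replicate 3 (adjusted p 0.0592). That of Pgls ended without WT replicate 1, WT replicate 2, CKO replicate 1 or CKO replicate 3, and without WT replicate 1 of both times (adjusted p 0.0582 to 0.151). Higher genes numbered 9 without WT 48 h replicate 1, 9 without a count filter and 8 with DESeq2. Of all genes tested, 866 of 16476, 858 of 30285 and 786 of 15935 were higher in these fits. Lower genes numbered 1 without WT 0 h replicate 2, WT 0 h replicate 3 or CKO 0 h replicate 1 and 0 without CKO 0 h replicate 3. In the fits that left out 1 of these 0 h libraries, 287 to 364 of all genes were lower.

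At 48 h, 2 genes were higher in CKO and 4 lower (edgeR, adjusted p under 0.05), 5% and 10% of the 40, beside 2.35% and 2.19% of all genes tested (4.54% in either direction). The differences were small. Pgm1 was 85.2 ± 9.34 CPM in CKO and 119 ± 16.8 CPM in WT (SD, n = 3), log2 change -0.48 ± 0.095 (SE, edgeR adjusted p = 0.00471). Eno3 was 49.9 ± 2.26 against 70.3 ± 7.59 CPM, log2 change -0.49 ± 0.098 (SE, edgeR adjusted p = 0.00473). Pdk1 was 198 ± 16.4 against 259 ± 6.38 CPM, log2 change -0.39 ± 0.060 (SE, edgeR adjusted p = 0.000463), and Aldoa 943 ± 45.7 against 1185 ± 164 CPM, log2 change -0.33 ± 0.082 (SE, edgeR adjusted p = 0.0254). Higher in CKO were Pgm2, log2 change 0.42 ± 0.097 (SE, edgeR adjusted p = 0.015), and Gpd2, log2 change 0.30 ± 0.070 (SE, edgeR adjusted p = 0.0141). Hk2, Tpi1, Gapdh, Pkm and Ldha did not pass, with log2 changes of 0.088 ± 0.10, -0.25 ± 0.090, -0.23 ± 0.12, -0.20 ± 0.070 and -0.16 ± 0.073 in that order (SE). Of these, Tpi1 passed with the replicate number as a block (edgeR adjusted p = 0.0453) and Pkm without WT 48 h replicate 2 (adjusted p = 0.0344). Without a count filter Tpi1, Pkm and Gapdh passed (adjusted p = 0.00172, 0.00972 and 0.0147). At an unadjusted p under 0.05, 4 of the 40 genes were higher and 12 lower. The share of all genes at that threshold is not given here, so these 2 counts have no background to be read against. The summed CD8 T cell markers were lower in CKO at 48 h, 1293 to 1355 against 1536 to 1587 CPM, with 2 of 6 called (edgeR), and so were the NK cell markers, 134 to 190.2 against 224 to 260.1 CPM, with 0 of 3 called. Their part in these differences was not tested. Across the 40 genes 30 values lay below 0, 13 of them among the 18 enzymes from hexokinase to lactate dehydrogenase, and the median was -0.084 beside -0.0073 for all genes tested. WT 48 h replicate 1 was the highest of its group for 26 of the 40 genes, and CKO 48 h replicate 1 for 24. Without WT replicate 1 at both times the median was -0.048. Without WT 48 h replicate 3, CKO 48 h replicate 1 or CKO 48 h replicate 3 the calls of Pgm2 and Gpd2 ended (edgeR adjusted p 0.0688 to 0.0801 and 0.082 to 0.112), leaving 0 genes higher. The call of Aldoa ended without CKO 48 h replicate 2 or 3 and in a fit of these 2 groups alone (adjusted p 0.0683 to 0.133). Without a count filter 8 of the 40 genes were lower, beside 653 of all 30285 genes in that fit.

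**Figure D3:**
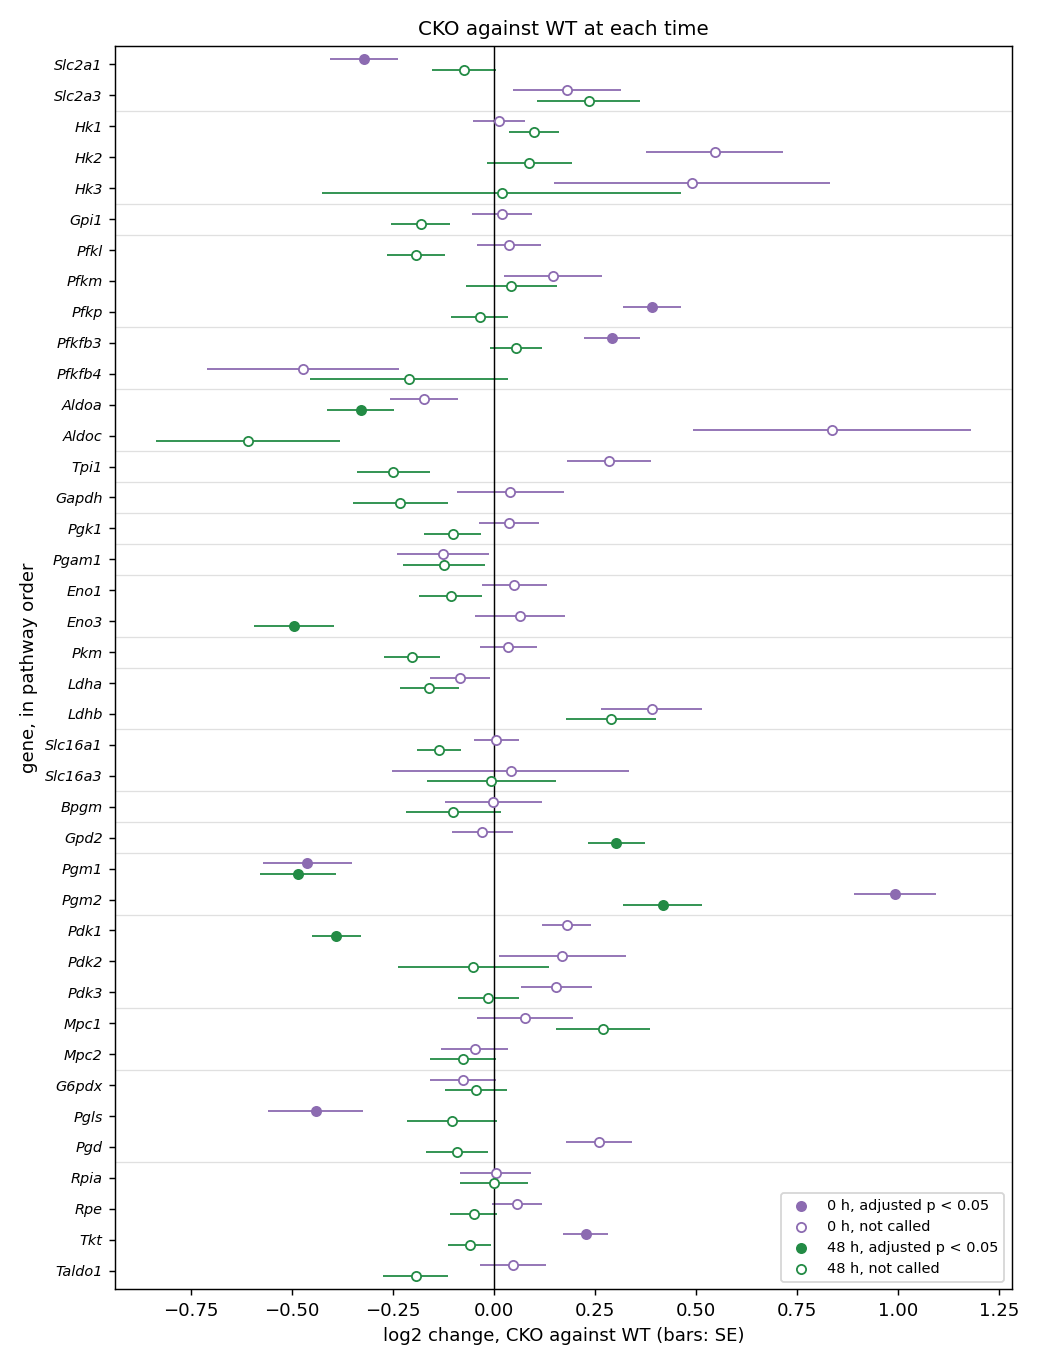
Log2 change of CKO against WT (x axis) of the 40 tested genes in pathway order (y axis) at 0 h (purple) and 48 h (green); bars are standard errors and open circles genes not called. Pgm2 lies farthest right at 0 h, Pgm1 is below 0 at both times, and at 48 h 30 of the 40 points lie below 0.

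Whether the genotypes responded differently was tested as the difference of their responses, CKO minus WT. The test called 3 of the 40 genes lower (7.5%) and 0 higher by edgeR, beside 0.772% and 0.609% of all genes tested (1.38% in either direction). At an unadjusted p under 0.05 edgeR had 2 higher and 13 lower, a threshold at which the share of all genes is not given here. DESeq2 called 0 higher and 7 lower, beside 207 higher and 224 lower of all 15935 genes. Pdk1 fell further in CKO, by 0.79 ± 0.060 against 0.22 ± 0.060 on the log2 scale in WT, a difference of -0.57 ± 0.085 (SE, edgeR adjusted p = 0.00113) that was called in all 19 alternatives. Pfkp rose less in CKO, by 1.06 against 1.49, a difference of -0.43 ± 0.10 (SE, edgeR adjusted p = 0.0371). For Pgm2 the difference was -0.58 ± 0.14 (SE, edgeR adjusted p = 0.0453). In all 3 genes the CKO libraries lay above the WT libraries at 0 h, for Pdk1 without passing the test (log2 change 0.18 ± 0.060 (SE, edgeR adjusted p = 0.079)). At 48 h Pfkp overlapped WT, Pdk1 was below it and Pgm2 still above it. The Pfkp call ended without 7 of the 12 libraries in turn (WT 0 h 1 and 3, WT 48 h 3, CKO 0 h 1 and 3, CKO 48 h 2 and 3; edgeR adjusted p 0.0616 to 0.124). The Pgm2 call ended without 10 of them, all but WT 48 h replicate 1 and CKO 0 h replicate 2 (adjusted p 0.0615 to 0.137). The number lower was 1 without WT 0 h replicate 3, WT 48 h replicate 3, CKO 0 h replicate 1, CKO 48 h replicate 2 or CKO 48 h replicate 3. In those fits 72 to 127 of all genes were lower. Without WT replicate 1 at both times the number was 6, beside 227 of all 16373 genes.

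Beyond the calls, 31 of the 40 differences of response lay below 0, with a median of -0.15 beside -0.0052 for all genes tested. Of the 18 enzymes from hexokinase to lactate dehydrogenase, 16 had a difference below 0, and 1 of them (Pfkp) passed. Without WT replicate 1 at both times 29 of the 40 lay below 0 and the median was -0.14. Over the 19 alternatives the median ran from -0.20 to -0.12. Tpi1 had a difference of -0.53 ± 0.14 (SE, edgeR adjusted p = 0.0733), which passed in 6 of the 19 alternatives (lowest adjusted p 4.02e-06). Eno3 had -0.56 ± 0.15 (adjusted p = 0.0745) and Aldoc -1.44 ± 0.41 (adjusted p = 0.107). Eno3 passed in 3 of the 19 alternatives and Aldoc in 6, both by DESeq2 among them (adjusted p = 0.0395 and 0.0227). The 5 contrasts share libraries, so that the responses and the genotype differences of a gene are not independent of each other.

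**Figure D4:**
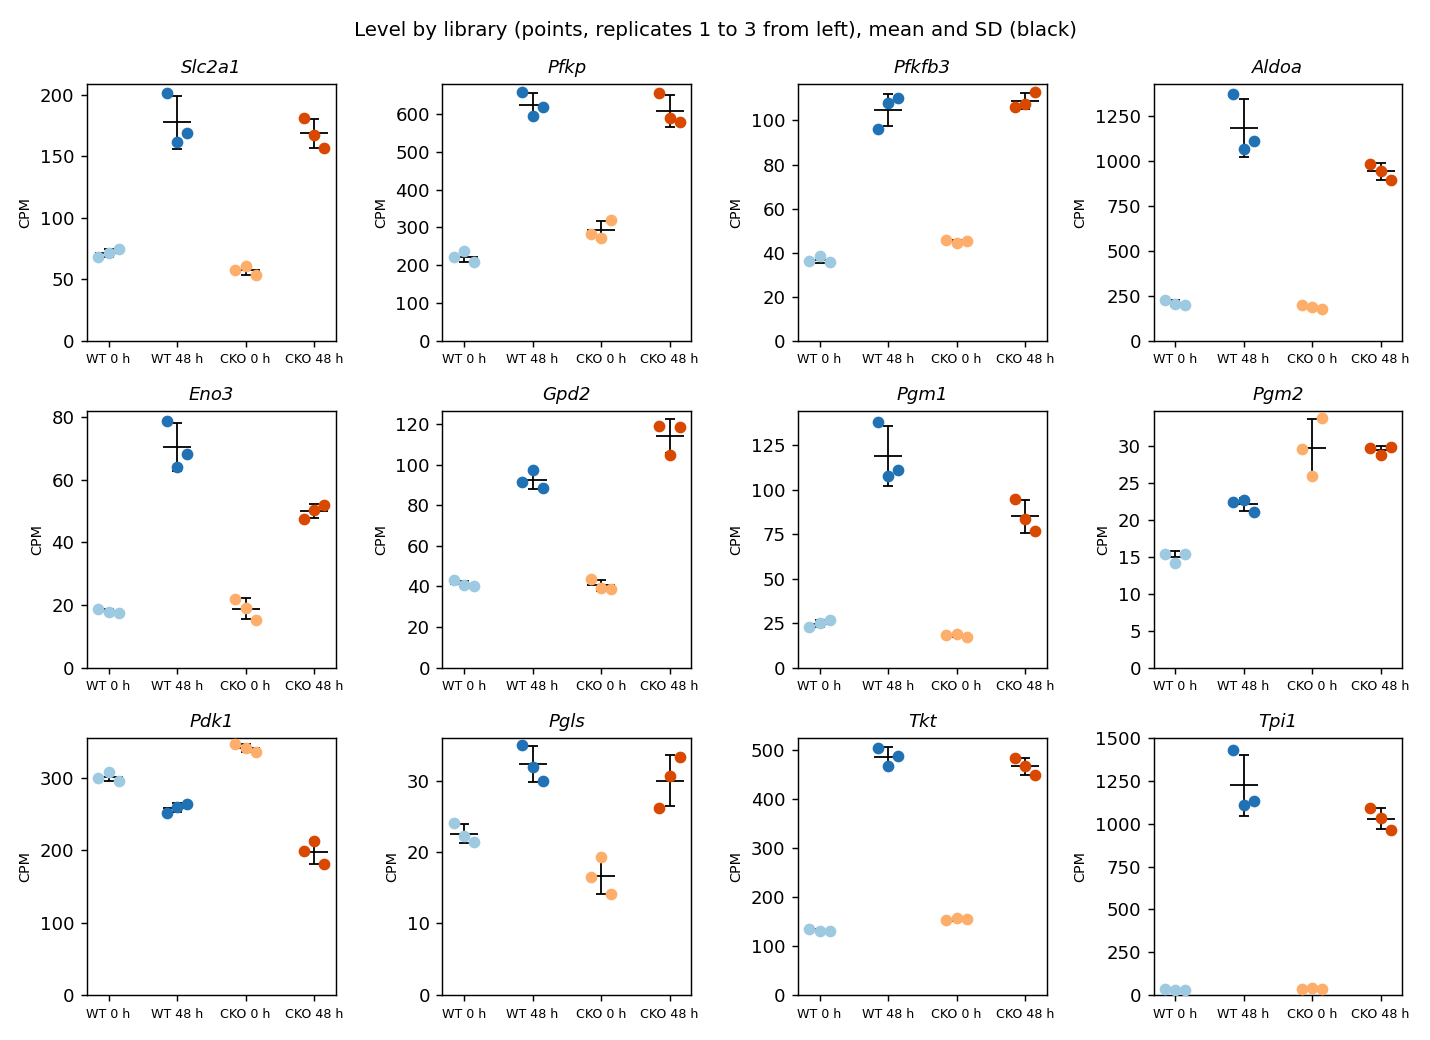
CPM (y axis, from 0) in each of the 12 libraries (points) by group (x axis), with mean and SD in black, for the 11 genes called between genotypes or in the difference of responses, and Tpi1. Pgm2 in CKO overlaps between the times, and Pdk1 in CKO is above WT at 0 h and below it at 48 h.

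Several of these genes have near-identical copies in the genome, and how the submitters counted reads that fit more than 1 place is not recorded in the labels. Cut into words of 50 bases, the coding transcript of Gapdh shared 82.5% of its words with other genes, 213 of them annotated as pseudogenes of any kind. For Eno1 (with the retrogene Eno1b) the share was 72.2%, for Pgk1 68%, for Mpc1 44.2%, for Pgam1 41.5% and for Pkm 34.4%, whereas 20 of the 41 genes, Hk2, Pgm2 and Pdk1 among them, shared none. Copies of Gapdh held 25.7% of the counts of gene plus copies in WT at 0 h and 26.3% at 48 h, and 26.6% and 27.1% in CKO. Those of Pkm held 12.7% and 4.36% in WT. The levels of these genes are therefore uncertain. Without the 8 genes that shared 25% or more, a set chosen after seeing the shares, 26 of 32 rose in WT and 24 in CKO, and each of the genotype calls above is among these 32. Transcripts of Pfkp and Pgm1 overlap those of their neighbours Pitrm1 and Itgb3bp over 17.1% and 15% of their words. The counts at Itgb3bp were 499 in WT and 561 in CKO at 0 h, and 1103 and 1449 at 48 h, beside 1342, 888, 7160 and 4739 at Pgm1, and their part in the Pgm1 difference was not tested.

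The promoters of the set were compared by letters alone. RefSeq windows of 300 bases, 250 before and 50 after a start, were found for 39 of the 41 genes (56 windows; none for Slc2a3 and Gpd1) and searched on both strands. ACGTG was in 42.9% of these windows, from 21 genes, and in 19.6% of all 32851 windows. CACGTG, which contains ACGTG, was in 8.93% and 7.15%, from Ldha, Pdk2, Pfkfb3, Pfkm and Slc16a1. GGGCGG, the letters of the SP1 box, was in 64.3% and 35.7%. Genes with ACGTG included Hk2, Ldha, Pgk1 and Slc16a3, which rose, and Hk3 and Pdk2, which fell. The windows of a gene overlap and share bases, and the matches are a description of sequence.

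Other genes of these pathways, 56 on a list of which 40 were tested, were less one-sided. In WT 20 rose and 13 fell, and in CKO 22 rose and 11 fell (edgeR), with medians of 0.35 and 0.43 on the log2 scale. In WT that was 50% and 32.5% of the 40, beside 38.7% and 39.1% of all genes tested. In CKO it was 55% and 27.5%, beside 38.5% and 39.2%. Between genotypes 0 were higher and 2 lower at 0 h (5 and 6 at an unadjusted p under 0.05, 2 and 2 by DESeq2), 1 higher and 1 lower at 48 h, and 1 had a higher response in CKO. The edgeR calls were 5% of the 40 at 0 h, 5% at 48 h and 2.5% in the response. Of all genes tested, 7.48%, 4.54% and 1.38% were called in either direction. By DESeq2, 786 and 658 of all 15935 genes were called higher and lower at 0 h. Shares of all genes at the unadjusted threshold are not given here, for this list or for the control genes below. Pck2, the mitochondrial enzyme that makes phosphoenolpyruvate, stood at 12.1, 9.67 and 12 CPM in WT and 7.87, 6.96 and 6.89 CPM in CKO at 0 h. Pck2 stood at 51.3, 36.9 and 43.4 CPM in WT and 26.8, 26.5 and 21.5 CPM in CKO at 48 h. It was lower in CKO at both times, without overlap, with log2 changes of -0.63 ± 0.15 at 0 h and -0.82 ± 0.12 at 48 h (SE, edgeR adjusted p = 0.011 and 0.00032). The 0 h call ended without CKO 0 h replicate 3 (adjusted p 0.0543). Pdp1, the phosphatase that undoes what the pyruvate dehydrogenase kinases do, stood at 24.7, 29.2 and 30.1 CPM in WT and 20.6, 19.6 and 15.3 CPM in CKO at 0 h. Pdp1 stood at 16.6, 14.9 and 16.3 CPM in WT and 16.2, 21 and 16.4 CPM in CKO at 48 h. It was lower in CKO at 0 h, log2 change -0.60 ± 0.13 (SE, edgeR adjusted p = 0.00613). It fell in WT, by 0.81 ± 0.13 (log2, SE), and its change of -0.049 ± 0.13 in CKO did not pass. The difference of responses was 0.76 ± 0.18 (SE, edgeR adjusted p = 0.0396). That call ended without WT 0 h replicate 2 or 3, WT 48 h replicate 2 or 3, CKO 0 h replicate 3 or any 1 of the 3 CKO 48 h libraries (adjusted p 0.0518 to 0.121). Slc2a6, a glucose carrier of intracellular membranes, stood at 2.0, 1.87 and 2.08 CPM in WT and 2.83, 1.45 and 1.95 CPM in CKO at 0 h. Slc2a6 stood at 7.74, 6.68 and 6.72 CPM in WT and 17, 11.5 and 16.6 CPM in CKO at 48 h. It was higher in CKO at 48 h, without overlap, log2 change 1.09 ± 0.19 (SE, edgeR adjusted p = 0.00157). Ranked by the larger of the changes in WT and CKO, the first 4 of this list were Tktl1, Slc2a4, Slc2a6 and Eno1b. Slc2a6 rose by 1.83 ± 0.23 in WT and 2.85 ± 0.22 in CKO (log2, SE, edgeR adjusted p = 3.78e-07 and 4.2e-10), and Eno1b rose by 2.75 ± 0.18 in WT and 2.73 ± 0.19 in CKO (log2, SE, edgeR adjusted p = 3.56e-11 and 6.07e-11). The first 2 had very few counts, given here as sums over 3 libraries with ratios of library-scaled levels and exact 95% intervals for counting error only. Tktl1 went from 31 to 3 counts in WT (ratio 0.0847, 0.0166 to 0.272) and from 22 to 1 in CKO (ratio 0.0391, 0.000949 to 0.242). Slc2a4 went from 3 to 16 counts in WT (ratio 4.67, 1.34 to 25) and from 2 to 47 in CKO (ratio 20.2, 5.30 to 172). Of 8 listed genes that control these pathways, 6 were tested. The risers and fallers among them were 50% and 33.3% in each genotype, to be read beside the shares of all genes above. In each genotype 3 rose and 2 fell, and by edgeR 0 differed between genotypes in level or response (at an unadjusted p under 0.05, 1 higher and 2 lower at 0 h, 0 and 2 at 48 h, and 1 and 1 in the response; by DESeq2 0 and 1, 0 and 1, and 1 and 0).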

How the data were processed

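RNA of 12 libraries in 4 groups of 3 was measured. Per the labels' protocols, TRIzol was used for extraction and a TruSeq Stranded mRNA kit for the libraries. The authors deposited raw counts, whole numbers for each Ensembl gene ID. GRCm39, cutadapt, HISAT2 2.2.1 and DESeq2 are named, without their order, per the submitters' processing notes. The counting program, annotation and strand setting are not given in the sources used. Counts were fitted with edgeR 4.0.16 in R 4.3.3 (quasi-likelihood, robust, TMM, 1 mean per group, all 12 libraries, 8 residual degrees of freedom) after filterByExpr. The p-values are two-sided and Benjamini-Hochberg adjusted over 15935 genes, and a gene was called under 0.05. Symbols were matched by ID for 52073 IDs. Lengths and chromosomes came from GRCm38 by ID, promoters from RefSeq (GRCm38.p6). The members, lists and tests were chosen with earlier results of these data known. Values in every library are given for members called between genotypes, the leading isozyme of each step at 48 h, and members that fell or passed in 1 genotype; replicates differed by more than sampling noise. Alternatives were median-of-ratios factors, library totals, no or a stricter filter (CPM of 1 in 3 libraries and 100 counts), DESeq2 1.42.0, a replicate block, fits of 2 groups, and leaving out each library. WT replicate 1, which earlier results of these data showed to stand apart, was also left out at both times. Coding transcript lengths and the set without shared words were chosen after seeing the data. The fit was tested on simulated counts. Figures were drawn with matplotlib 3.10.9, and shares were tested with SciPy 1.17.1 in Python 3.11.15. Protein identities were not analysed here.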

Additional observations from a re-analysis of the deposited data

Results flagged for a closer look

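The test of the difference itself, CKO response minus WT response, passed in 3 of the 40 genes of the set and in 1 of 40 other genes of the pathways, beside 220 of the 15935 genes tested, 1.38% (edgeR, adjusted p under 0.05). The log2 difference was -0.57 for Pdk1, a pyruvate dehydrogenase kinase, 0.76 for Pdp1, the phosphatase that acts on the same enzyme, -0.58 for Pgm2, a phosphoglucomutase, and -0.43 for Pfkp, a phosphofructokinase. With 1 library left out at a time the Pfkp call ended in 7 of 12 cases, the Pgm2 call in 10, the Pdp1 call in 8 and the Pdk1 call in 0.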

How the results depend on the processing

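Numbers of genes called, with 1 library left out at a time, ran from 3 to 5 for those that fell in WT, from 3 to 9 and from 0 to 3 for those higher and lower in CKO at 0 h, from 0 to 2 for those higher at 48 h, and from 1 to 4 for those with a lower response in CKO. Without a count filter 9 were higher at 0 h, 8 lower at 48 h and 8 lower in response. Of all 30285 genes in that fit, 858, 653 and 353 were called so. With DESeq2 8 were higher at 0 h and 7 lower in response, beside 786 and 224 of all 15935 genes. Without WT replicate 1 at both times these numbers were 8 and 6, beside 853 and 227 of 16373. The main fit had 654 higher at 0 h, 349 lower at 48 h and 123 lower in response, of 15935. The other numbers of genes called stayed within 1.5 times, and the cause of these shifts was not tested. The main fit did not take the replicate numbers as pairs, and whether they pair the libraries is not settled here. Over 18 same-numbered pairs the correlation of deviations ran from -0.021 to 0.199, and was over 0.1 in 3. Between the times of a genotype, same-numbered pairs had 0.072 to 0.199 in WT and 0.053 to 0.075 in CKO. Different-numbered pairs had -0.196 to 0.040 in WT and -0.047 to -0.021 in CKO. With the number as a replicate block, 5 genes were lower in response in place of 3, beside 148 of all 15935 genes in place of 123. The WT change in the share of Slc2a1 (-0.84 percentage points) ran from -1.88 to 0.74 and the CKO change in the share of Aldoa (0.033) from -0.13 to 0.16 as libraries were left out. The log2 ratios of summed levels per kb depended on the length used, by construction. Without length correction or with coding transcript length, hexokinase went from 2.01 to 1.74 or 1.48 in WT and from 2.04 to 1.79 or 1.54 in CKO, lactate export in CKO from 1.55 to 1.62 or 1.63, and phosphofructokinase in CKO from 1.36 to 1.27 without correction. The kinases of pyruvate dehydrogenase went from 0.47 to 0.083 or 0.37 in WT and from 0.12 to -0.37 or -0.0023 in CKO, and the pyruvate carrier in CKO from 0.15 to -0.0054 or 0.0037. Of single genes over all alternatives, 61 results passed that had not, 52 no longer passed and 0 called ones changed sign, while 122 that passed neither way changed sign. Scaling moved the median of all genes by at most 0.035 (log2). At these depths Gpd1 could not be tested. A comparison of protein sequences was not run.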
